A study of Homo sapiens with 6 samples.

Results

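Collagen genes were taken as every protein-coding gene of GENCODE release 44 whose symbol is COL, a number, A and a number, which gave 44 of the 37902 genes in the table. Of these, 26 passed the filter of a mean of 10 normalised counts across the 6 libraries and were tested, among 14684 genes tested in all. The cells were ARPE-19, an established human line that came from adult retinal pigment epithelium (RPE). WT is ARPE-19 itself. POLDIP2 KO (genotype label POLDIP knockout) is the same line after transduction with a lentivirus that encodes SpCas9 and an sgRNA targeting POLDIP2 within its coding bases. The transduced cells were selected with puromycin and expanded, and no cloning from single cells or control vector in WT is described in the sources used here. Each line has 3 libraries, labelled as biological replicates 1 to 3, from cells under regular maintenance at day 3, and the polyadenylated RNA was sequenced with a stranded kit. How the replicates were grown apart is not given, so the p-values measure the spread between these libraries.

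Collagens are secreted proteins whose alpha chains wind around each other into a helical trimer, and each gene encodes 1 chain. Fibrillar collagens pack into the banded fibrils of connective tissue, network collagens such as type IV form the sheets of basement membranes, and other classes coat fibrils, anchor epithelia or span the cell membrane. In the eye the RPE rests on Bruch's membrane, a layered matrix with a type IV network at its faces and fibrillar collagen within, to which the RPE contributes.

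The libraries held 31532797 to 45795509 recovered reads each, so that 3 reads, used here as the detection floor, equal 2.44 to 3.69 normalised counts. A normalised count is a gene's count divided by the size factor of its library. POLDIP2 itself, the targeted gene, lay at 3919, 4827 and 4798 normalised counts in WT and at 1063, 1248 and 1143 in POLDIP2 KO (log2 fold change -1.97, limma adjusted p = 0.00961). Replicate 1 of both lines stood apart from the other libraries. On the first principal component, which held 30.9% of the variance, WT replicate 1 lay at 57.5 and POLDIP2 KO replicate 1 at 48.2, and the other 4 libraries lay between -39.8 and -4.77. Of 12 RPE markers, 9 passed the filter, with MITF at 2955 to 4503 and OTX2 at 574 to 883 normalised counts, whereas RPE65 and TTR were at 0 in every library and TYR did not exceed 2.98. RLBP1, PMEL and TYRP1 stayed at 103 or less. In replicates 1, 2 and 3, BEST1 was at 61.4, 562 and 377 in WT and at 239, 419 and 669 in POLDIP2 KO. RDH5 was at 208, 266 and 322 in WT and at 188, 246 and 247 in POLDIP2 KO. BEST1, RDH5 and RLBP1 were lowest in replicate 1 of each line, whereas KRT8 and TYRP1 were highest there. The summed RPE markers were 72065 to 82541 in WT and 67643 to 89650 in POLDIP2 KO, and 92.1% to 94.0% of this sum was KRT8 and KRT18, keratins of simple epithelia in general. All 8 fibroblast or myofibroblast markers passed the filter, with summed levels of 139425 to 209839 in WT and 149473 to 243609 in POLDIP2 KO, mostly VIM. In bulk RNA, fewer cells of a type and less RNA per cell cannot be told apart.

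In the WT libraries (in the order of replicates 1, 2 and 3, as everywhere below) the collagen genes took 0.712%, 0.417% and 0.409% of all normalised counts. In the POLDIP2 KO libraries they took 0.799%, 0.448% and 0.506%. Replicate 1 had the highest share in each line, and the ranges of the lines overlapped. Of the 26 tested members, 12 had a mean of at least 1000 normalised counts, 6 lay between 100 and 1000, and 8 lay below 100. Levels of different genes were compared per kb of the canonical transcript. On that scale of normalised counts per kb, COL4A2 was the highest collagen at 7609, followed by COL4A1 at 6820, COL11A1 at 4907, COL12A1 at 3316 and COL8A1 at 2899. COL4A2 ranked 241 of the 13103 protein-coding genes tested, and COL8A1 ranked 748. The order within these 5 depends on the transcript length used. With the union of all annotated exons the same 5 genes led, with COL11A1 first. Levels of COL4A1, COL4A2 and COL11A1 varied more between replicates of a line than they differed from each other, so their order is not separated by these libraries.

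The most abundant transcripts thus came from different classes, with the basement membrane network (COL4A1 and COL4A2), the fibrillar class (COL11A1), the fibril-associated class (COL12A1) and the short-chain network (COL8A1) each represented. COL1A1, COL1A2 and COL3A1, which encode the chains of the common interstitial fibrils, were at 361, 20.6 and 4.87 normalised counts per kb. POLDIP2 KO replicate 1 carried much of these means, and without it they were 198, 0.57 and 1.31. The plot of every tested collagen by class shows both this spread of levels and the position of replicate 1.

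**Figure D1:**
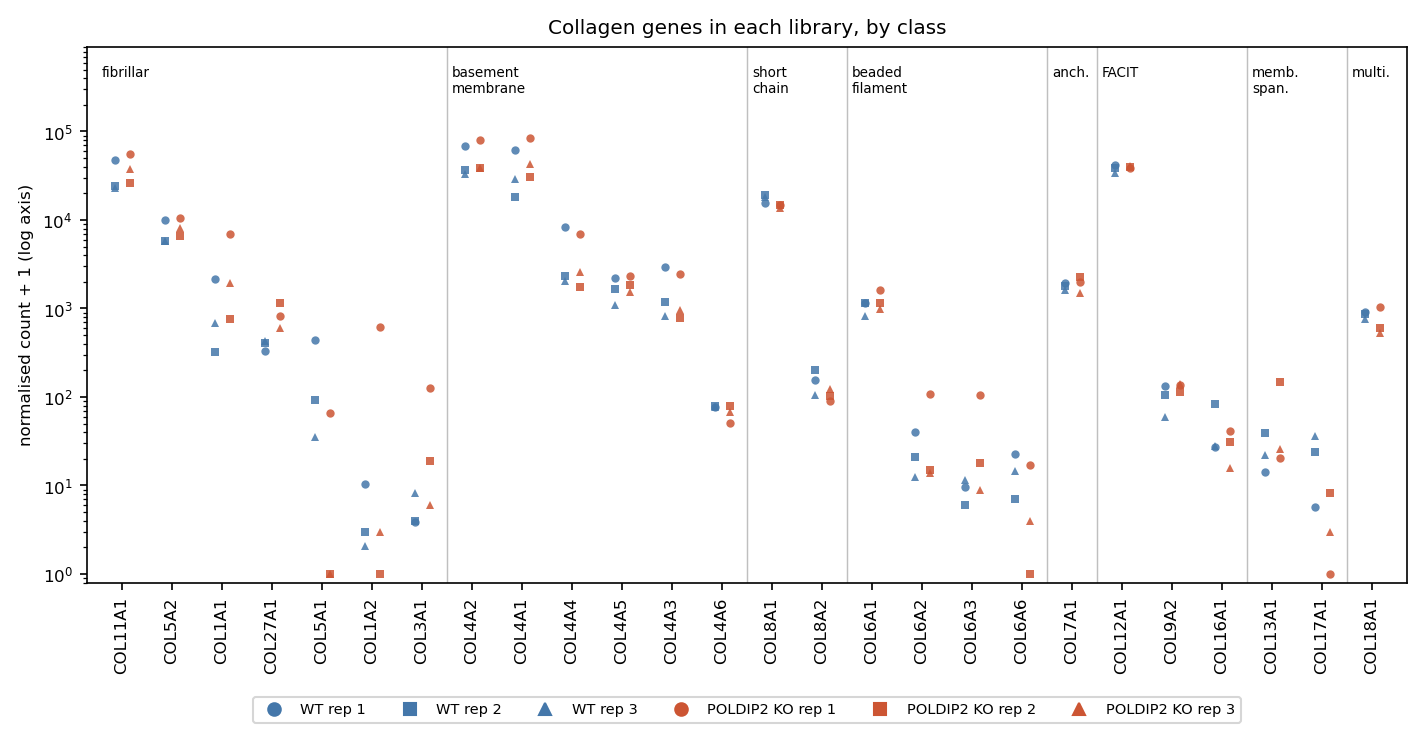
Normalised count + 1 (log axis) of the 26 tested collagen genes in each library, ordered by class, with WT in blue and POLDIP2 KO in red, and replicates 1, 2 and 3 as circles, squares and triangles. COL4A2, COL4A1, COL11A1 and COL12A1 lie at 18322 or higher in every library, and the circles of replicate 1 are the highest in both lines for 14 of the 26 genes.

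The other 18 collagen genes stayed under the filter. COL10A1, COL22A1, COL23A1 and COL6A5 were at 0 in every library, which allows up to 3 reads in each. COL28A1 (mean 7.53), COL15A1 (5.60), COL20A1 (3.51) and COL11A2 (2.87) were the highest of the rest in normalised counts. COL11A2, the partner chain of COL11A1 in type XI collagen, was at 0 in 5 libraries and at 17.2 in POLDIP2 KO replicate 1. COL2A1, COL5A3, COL9A1, COL9A3, COL14A1, COL19A1, COL21A1, COL24A1, COL25A1 and COL26A1 had means below 2. In all, 9 of the 18 had no library above 3 reads.

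To compare the lines, limma was fitted to log2(normalised count + 1) of all 14684 genes, with p-values adjusted over all of them, and a gene was called at an adjusted p under 0.05 and a fold change above 1.5. No collagen gene was called (0 of 26, against 0.17% of all genes tested), and edgeR called none either (0.116% of all genes). At an unadjusted p under 0.05 limma listed 4 of 26 (15.4%, against 6.48% of all genes), with COL27A1 higher and COL5A1, COL8A1 and COL17A1 lower in POLDIP2 KO. COL17A1 passed the filter through WT (mean 21.1, against 3.10 in POLDIP2 KO), so its entry among the tested genes depended on its WT level. The libraries of the lines did not overlap for 2 of 26 members (7.69%, against 10.9% of all genes), COL27A1 and COL8A1. DESeq2 on the recovered reads called 1, COL27A1 (against 1.7% of the 14614 genes that it gave an adjusted p). It gave none for COL1A2, which could therefore not be called. With the replicate number as a block, limma called 1, COL1A1 (0.204% of all genes), and listed 8 of 26 at an unadjusted p under 0.05 (30.8%, against 11.1% of all genes).

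In direction, 16 of the 26 collagen genes had a higher mean log2 value in POLDIP2 KO and 10 a lower one, with a median log2 fold change of 0.20 against -0.000288 for all genes tested. As a description, 9 members were higher in POLDIP2 KO in all 3 same-numbered pairs and 4 were lower in all 3, where 17.0% and 15.7% of all genes tested did so. By class the median log2 fold change was 1.10 for the 7 tested fibrillar genes. It was 0.43 for the same genes without replicate 1 of both lines, and 0.36 for the 5 that remain without COL1A2 and COL3A1, which passed the filter through POLDIP2 KO replicate 1. The median was 0.02 for the 6 basement membrane genes and 0.30 for the 4 beaded filament genes. Of these 4, COL6A3 passed the filter through POLDIP2 KO replicate 1. COL6A6 passed it through WT (mean 13.8, against 6.32 in POLDIP2 KO). Without replicate 1 of both lines these 4 were at 0.14 (COL6A1), -0.17 (COL6A2), 0.62 (COL6A3) and -2.34 (COL6A6). The median was 0.04 for the 3 fibril-associated genes and -0.40 for the 2 short-chain genes. For the 2 membrane-spanning genes, COL13A1 and COL17A1, it was -0.83, and COL17A1 passed the filter through WT. COL7A1, the chain of anchoring fibrils, was at 0.09, and COL18A1, a heparan sulfate proteoglycan of basement membranes, at -0.29.

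**Figure D2:**
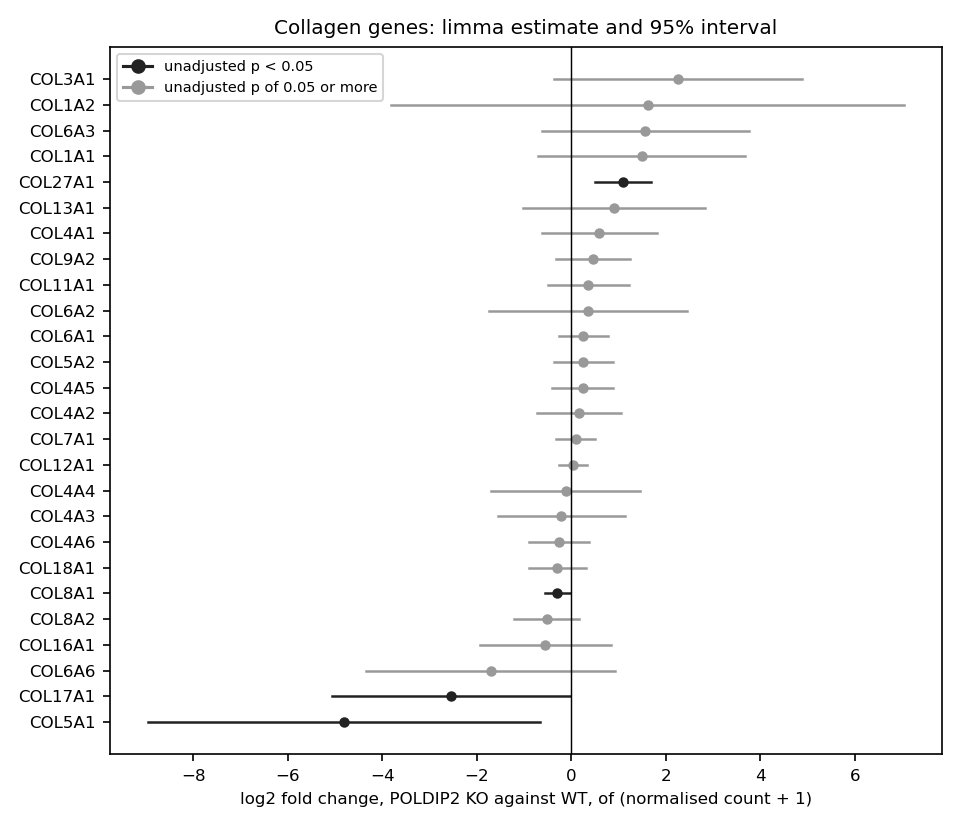
Log2 fold change of POLDIP2 KO against WT on the (normalised count + 1) scale for the 26 tested collagen genes, ordered by log2 fold change, with bars as 95% confidence intervals from limma. The intervals of COL27A1, COL8A1, COL5A1 and COL17A1 exclude 0 before adjustment, and those of COL5A1, COL1A2 and COL3A1 are the widest of the fibrillar class.

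Among the fibrillar genes, COL27A1 encodes the chain of type XXVII collagen, which forms thin fibrils and is best known from cartilage. The gene lies on chromosome 9 (GRCh38, 114155537 to 114312511, plus strand). Its normalised counts were 326, 406 and 427 in WT and 817, 1141 and 595 in POLDIP2 KO. Every POLDIP2 KO library lay above every WT library. The means were 386 ± 53.4 in WT and 851 ± 274 in POLDIP2 KO (SD, n = 3 each), a ratio of 2.20. The log2 fold change was 1.10 with a standard error of 0.25 and a 95% interval of 0.50 to 1.69 (limma adjusted p = 0.254). DESeq2 gave an adjusted p of 0.00468, the lowest among the alternatives with all libraries, whose adjusted p ranged up to 0.333. Without replicate 1 of either line the log2 fold change was 0.98 (limma adjusted p = 0.633). COL27A1 therefore passed the threshold with DESeq2 and not with limma, edgeR or the replicate block.

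COL1A1 encodes the major chain of type I collagen, the most abundant fibrillar collagen of the body, and lies on chromosome 17 (50184101 to 50201632, minus strand). Its normalised counts were 2147, 320 and 677 in WT and 6956, 760 and 1953 in POLDIP2 KO. The lines overlapped, since WT replicate 1 exceeded 2 of the POLDIP2 KO libraries. Within each same-numbered pair POLDIP2 KO was higher, by 3.24, 2.37 and 2.89 times. The log2 fold change was 1.49 with a 95% interval of -0.70 to 3.68 (limma adjusted p = 0.981). With the replicate block the same log2 fold change had an adjusted p of 0.0436. The means were 1048 ± 969 in WT and 3223 ± 3287 in POLDIP2 KO (SD, n = 3 each), so the SD within POLDIP2 KO exceeded the difference between the means, and the block removes the part of it that the replicate numbers share. Without replicate 1 the log2 fold change was 1.39 (limma adjusted p = 0.707). With 1 library left out at a time it ran from 0.65, without POLDIP2 KO replicate 1, to 2.25, without POLDIP2 KO replicate 2.

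COL1A2 encodes the other chain of type I collagen. Its normalised counts were 9.45, 2.01 and 1.04 in WT and 614, 0 and 1.99 in POLDIP2 KO. One library, POLDIP2 KO replicate 1, held 499 recovered reads, and the other 5 held 10 or fewer. The log2 fold change was 1.61 (95% interval -3.82 to 7.04), and -0.52 without replicate 1. COL3A1, the chain of type III collagen, lay at 2.83, 3.01 and 7.31 in WT and at 124, 17.9 and 4.96 in POLDIP2 KO, again highest in POLDIP2 KO replicate 1 (log2 fold change 2.26, limma adjusted p = 0.873, and 0.88 without replicate 1).

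Some other matrix genes shared this library as their highest. ITGA11, a receptor subunit for fibrillar collagen, was at 167 in POLDIP2 KO replicate 1 and at 11.4 or less elsewhere, and the small proteoglycan genes BGN, LUM and DCN were at 22.1, 9.84 and 13.5 there and at 4.88 or less elsewhere. This did not hold for all fibril-binding matrix genes, since ASPN and PRELP were highest in WT replicate 1 (25.5 and 16.1). In POLDIP2 KO replicate 1 ASPN was at 1.23 and PRELP at 8.61. Of the 8 fibroblast or myofibroblast markers, 5 (ACTA2, PDGFRB, POSTN, TAGLN and VIM) were highest in replicate 1 of both lines. THY1 was highest of all 6 libraries in POLDIP2 KO replicate 1 (70.1), yet replicate 1 was its lowest WT library (29.3). S100A4 was lowest in WT replicate 1, and PDGFRA was higher in replicate 2 than in replicate 1 of both lines. TAGLN, a myofibroblast marker, was at 35184, 2228 and 1425 in WT and at 51738, 4102 and 5461 in POLDIP2 KO, high in replicate 1 of both lines. POSTN was at 76.5, 4.01 and 6.27 in WT and at 77.5, 5.70 and 2.98 in POLDIP2 KO. The part of these markers in the levels of COL1A2 and COL3A1 was not tested.

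COL5A1 and COL5A2 encode chains of type V collagen, which regulates the diameter of type I fibrils. COL5A1 (chromosome 9, 134641803 to 134844843, plus strand) was at 437, 92.3 and 34.5 in WT and at 65.2, 0 and 0 in POLDIP2 KO. In recovered reads this was 463, 92 and 33 against 53, 0 and 0, so only POLDIP2 KO replicate 1 lay within the range of WT. The fitted log2 fold change was -4.81 with a standard error of 1.76 (limma adjusted p = 0.664), and its size depends on the value added to the zeros. Alternatives that kept all libraries gave values between -5.47 and -3.11, and none of them called it. COL5A2 was at 9990, 5791 and 5723 in WT and at 10580, 6669 and 8012 in POLDIP2 KO. Its log2 fold change was 0.26 (95% interval -0.36 to 0.88, limma adjusted p = 1.000), and the lines overlapped. COL11A1, the major chain of type XI collagen, was at 47801, 24160 and 22819 in WT and at 56259, 26363 and 37845 in POLDIP2 KO. Replicate 1 was the highest library of each line, and the log2 fold change was 0.36 (95% interval -0.50 to 1.23).

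Type IV collagen, the network of basement membranes, is encoded by 6 genes that lie as 3 pairs on opposite strands with their starts facing each other. Bases between the RefSeq starts used here are shown because they are upstream of both genes of a pair at those starts. The wider GENCODE bounds of COL4A2 (from 110305812) take in all of its stretch, and those of COL4A4 (to 227164453) take in part. They come from RefSeq on GRCh38.p14, plus strand, and cover COL4A1 and COL4A2 at chr13:110307158-110307283, COL4A4 and COL4A3 at chr2:227164374-227164623, and COL4A6 and COL4A5 at chrX:108439588-108439837. Capitals mark matches to GGGCGG (the GC box), CCAAT or TATAAA on either strand.
COL4A1 and COL4A2: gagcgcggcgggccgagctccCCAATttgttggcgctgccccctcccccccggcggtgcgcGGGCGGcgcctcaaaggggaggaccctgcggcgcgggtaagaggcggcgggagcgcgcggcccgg
COL4A4 and COL4A3: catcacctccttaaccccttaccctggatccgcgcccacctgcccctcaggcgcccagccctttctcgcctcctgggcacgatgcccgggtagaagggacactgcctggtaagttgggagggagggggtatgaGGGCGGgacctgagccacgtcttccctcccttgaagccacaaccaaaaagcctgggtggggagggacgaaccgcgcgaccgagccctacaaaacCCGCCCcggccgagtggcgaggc
COL4A6 and COL4A5: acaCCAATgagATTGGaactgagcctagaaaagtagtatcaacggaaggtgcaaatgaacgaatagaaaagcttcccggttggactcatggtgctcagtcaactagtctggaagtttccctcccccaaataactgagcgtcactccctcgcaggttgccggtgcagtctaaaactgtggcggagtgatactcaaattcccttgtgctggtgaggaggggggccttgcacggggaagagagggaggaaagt

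The COL4A1 and COL4A2 starts are separated by 126 bases, all of them shown, with a GC content of 80.2% (median 60.3% in the 126 bases before the start in 35116 promoters). This stretch holds 1 GC box and 1 CCAAT, which occur in 34.6% and 21.1% of promoters over that length. The COL4A4 and COL4A3 starts are 418 bases apart, and the 250 bases before COL4A3 have a GC content of 66.4% and 2 GC boxes, 1 on each strand. COL4A6 has annotated starts 379 and 1415 bases from that of COL4A5. The 250 bases before COL4A5 have a GC content of 51.2% and 2 copies of CCAAT, 1 on each strand. Over 250 bases the median GC content was 58.0%, GGGCGG occurred in 42.6% of promoters and CCAAT in 32.0%. TATAAA, found in 5.9% of promoters over 126 bases and 10.7% over 250, was in none of the 3 stretches.

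COL4A1 and COL4A2 encode the chains of the common type IV trimer. COL4A1 was at 61714, 18322 and 29148 normalised counts in WT and at 84845, 30798 and 42800 in POLDIP2 KO. COL4A2 was at 68383, 36208 and 33402 in WT and at 79465, 38443 and 38369 in POLDIP2 KO. Replicate 1 of each line was the highest library for both genes, and the lines overlapped. Within pairs COL4A1 was 1.37, 1.68 and 1.47 times as high in POLDIP2 KO, for a log2 fold change of 0.59 ± 0.51 (SE, limma adjusted p = 1.000). Under the replicate block its adjusted p was 0.0808, which does not pass the threshold. For COL4A2 the pair ratios were 1.16, 1.06 and 1.15 and the log2 fold change 0.17 (95% interval -0.72 to 1.06).

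COL4A3, COL4A4 and COL4A5 encode the chains of the trimer found in specialised basement membranes such as that of the kidney glomerulus. COL4A4 was at 8365, 2330 and 2058 in WT and at 6906, 1740 and 2607 in POLDIP2 KO, and COL4A3 at 2940, 1196 and 820 in WT and at 2443, 788 and 962 in POLDIP2 KO. Replicate 1 of COL4A4 was 3.81 times the mean of replicates 2 and 3 in WT and 3.18 times in POLDIP2 KO, and for COL4A3 the ratios were 2.92 and 2.79. The log2 fold changes between the lines were -0.12 and -0.21. COL4A5 was at 2210, 1670 and 1081 in WT and at 2314, 1828 and 1543 in POLDIP2 KO (log2 fold change 0.24). COL4A6, its neighbour, had 75.6, 77.3 and 75.2 in WT and 49.2, 78.1 and 66.5 in POLDIP2 KO (log2 fold change -0.26), and did not share the high value of replicate 1.

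**Figure D3:**
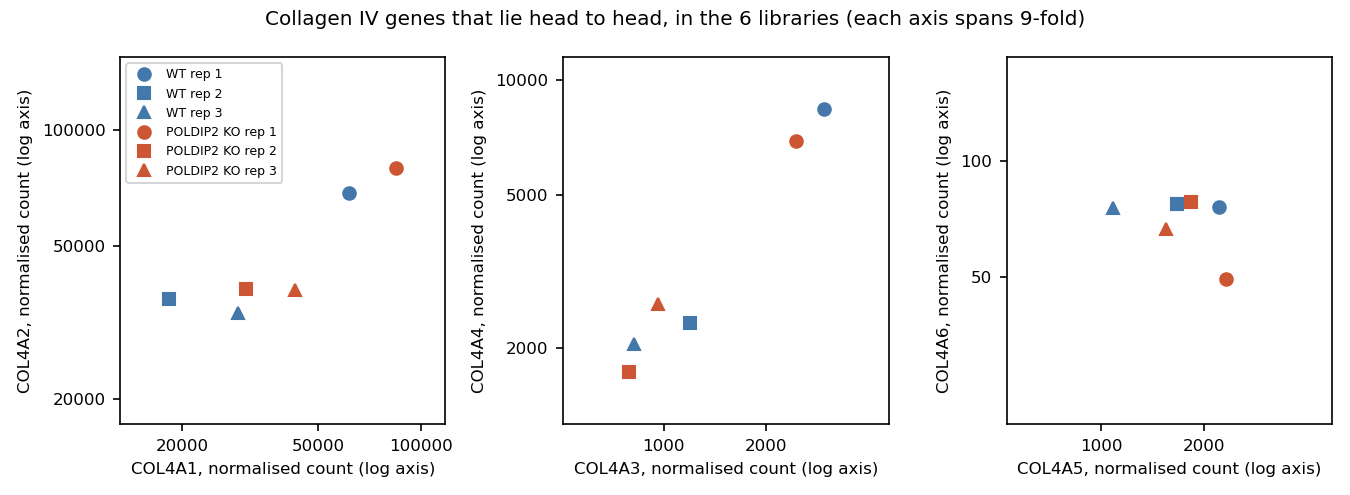
Normalised counts (log axes) of the 2 genes of each head-to-head type IV pair in the 6 libraries, WT in blue and POLDIP2 KO in red, with replicates 1, 2 and 3 as circles, squares and triangles. Replicate 1 of both lines lies at the upper right for COL4A1 with COL4A2 and for COL4A3 with COL4A4, while COL4A6 is lowest in POLDIP2 KO replicate 1, at 49.2.

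COL8A1 encodes a chain of type VIII collagen, a short-chain network collagen of Descemet's membrane and of vessel walls, and lies on chromosome 3 (99638475 to 99799226, plus strand). Its normalised counts were 15675, 18963 and 18257 in WT and 14686, 14588 and 13763 in POLDIP2 KO. All POLDIP2 KO libraries lay below all WT libraries, with WT replicate 1 the nearest. The log2 fold change was -0.29 with a standard error of 0.11 and a 95% interval of -0.56 to -0.03 (limma adjusted p = 0.690). It was not called under any alternative with all libraries, where the adjusted p ranged from 0.319 to 0.783. COL8A2, the other type VIII chain, was at 154, 201 and 105 in WT and at 89.8, 101 and 122 in POLDIP2 KO (log2 fold change -0.52, 95% interval -1.20 to 0.17).

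COL12A1 encodes a fibril-associated collagen that bridges type I fibrils to the surrounding matrix. It was at 42282, 39029 and 33767 in WT and 38537, 39262 and 40403 in POLDIP2 KO. The lines overlapped, and the log2 fold change of 0.04 had a 95% interval of -0.25 to 0.34. Its direction flipped to -0.071 with quantile normalisation. COL9A2, a chain of type IX collagen, was at 133, 103 and 58.5 in WT and at 137, 112 and 138 in POLDIP2 KO (log2 fold change 0.46), while its partner chains COL9A1 and COL9A3 were under the filter. COL16A1, another member of the class, was at 26.5, 82.3 and 27.1 in WT and at 40.6, 30.1 and 14.9 in POLDIP2 KO (log2 fold change -0.55).

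Type VI collagen forms beaded filaments near basement membranes from chains of COL6A1, COL6A2 and a further chain, usually that of COL6A3. COL6A1 was at 1153, 1145 and 811 in WT and at 1612, 1144 and 993 in POLDIP2 KO (log2 fold change 0.26, 95% interval -0.27 to 0.79). COL6A2 was far lower, at 39.7, 20.1 and 11.5 in WT and at 106, 13.8 and 12.9 in POLDIP2 KO. COL6A3 was at 8.50, 5.02 and 10.4 in WT and at 105, 17.1 and 7.94 in POLDIP2 KO. For both COL6A2 and COL6A3 the highest library was POLDIP2 KO replicate 1. Their log2 fold changes of 0.35 and 1.57 became -0.17 and 0.62 without replicate 1. Per kb, COL6A1 was at 272 normalised counts, COL6A2 at 9.86 and COL6A3 at 2.43. COL6A6 was at 21.7, 6.02 and 13.6 in WT and at 16.0, 0 and 2.98 in POLDIP2 KO (log2 fold change -1.70, limma adjusted p = 1.000). Its entry among the tested genes depended on its WT level.

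Of the membrane-spanning collagens, COL17A1 encodes a hemidesmosome protein of basal epithelial cells (chromosome 10, 104031286 to 104085880, minus strand). It was at 4.72, 23.1 and 35.5 in WT and at 0, 7.33 and 1.99 in POLDIP2 KO. In recovered reads this was 5, 23 and 34 against 0, 9 and 2, and the lines overlapped. The log2 fold change was -2.55 (95% interval -5.07 to -0.04, limma adjusted p = 0.762). COL13A1, found at cell adhesion sites, was at 13.2, 38.1 and 20.9 in WT and at 19.7, 147 and 24.8 in POLDIP2 KO, with replicate 2 the highest of each line (log2 fold change 0.90). COL7A1 was at 1932, 1810 and 1601 in WT and at 2011, 2266 and 1493 in POLDIP2 KO, and COL18A1 at 904, 868 and 757 in WT and at 1026, 594 and 530 in POLDIP2 KO.

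Replicate 1 was the highest library of both lines for 14 of the 26 collagen genes (53.8%, against 22.0% of all genes tested), and the lowest of both lines for 2 (7.69%, against 20.5%). Of the 14, COL1A2 and COL6A6 passed the filter through replicate 1, so their place in this count partly follows from the filter. In replicates 2 and 3 COL1A2 was at 2.01 or less. COL6A6 was at 6.02 and 13.6 there in WT and at 0 and 2.98 in POLDIP2 KO. The 14 were COL4A1 to COL4A5, COL11A1, COL5A1, COL5A2, COL1A1, COL1A2, COL6A1, COL6A2, COL6A6 and COL18A1. They came from the basement membrane, fibrillar, beaded filament and multiplexin classes, while COL12A1, COL8A1, COL8A2, COL7A1 and COL27A1 were not among them. In WT the ratio of replicate 1 to the mean of replicates 2 and 3 was 4.31 for COL1A1, 2.60 for COL4A1, 2.03 for COL11A1 and 1.96 for COL4A2. In POLDIP2 KO the same ratios were 5.13, 2.31, 1.75 and 2.07. POLDIP2 KO replicate 1 was the highest of all 6 libraries for 12 of the 26 (20.9% of all genes tested had it highest). Among the 12 were COL1A2, COL3A1 and COL6A3, which passed the filter through this library. The labels give no extraction or sequencing date for the replicates, and what separates replicate 1 was not tested.

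**Figure D4:**
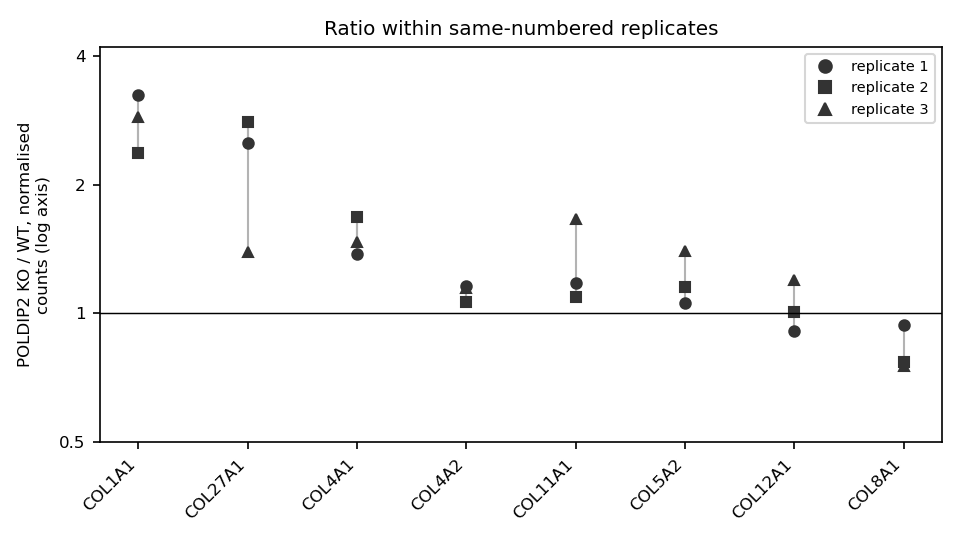
Ratio of POLDIP2 KO to WT (log axis) within each same-numbered pair of libraries for 8 of the collagen genes, with 1 symbol per replicate number. COL1A1, COL4A1 and COL27A1 lie above 1 in all 3 pairs (2.37 to 3.24 for COL1A1, 1.37 to 1.68 for COL4A1 and 1.39 to 2.81 for COL27A1), and COL8A1 lies below 1 in all 3 (0.75 to 0.94).

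Ratios of chains that assemble together depend little on the scaling of a library where both chains are high. They were taken after 1 was added to each normalised count. COL1A2 and COL5A1 lay under the detection floor in some libraries, and there the added 1 in part sets the size of their ratios. In all, 5 ratios were compared with exact permutation tests of log2 ratios, where 3 libraries against 3 cannot give a p below 0.1. COL4A1 over COL4A2 was at -0.15, -0.98 and -0.20 in WT and at 0.09, -0.32 and 0.16 in POLDIP2 KO on the log2 scale. It was higher in POLDIP2 KO in all 3 pairs, with a difference of 0.42 (exact permutation p = 0.3, two-sided, adjusted 0.5). COL5A1 over COL5A2 differed by -5.06 and was lower in all 3 pairs (exact p = 0.2, adjusted 0.5). COL6A3 over COL6A1 differed by 1.31 and was higher in 2 of 3 pairs (exact p = 0.2, adjusted 0.5). COL1A1 over COL1A2 differed by -0.12 and COL6A1 over COL6A2 by -0.09 (exact p = 1.0 for both). The COL1A1 over COL1A2 ratio was 3.50 in POLDIP2 KO replicate 1 and between 6.74 and 9.57 in the other 5 libraries. With 3 libraries a line these tests could not have passed 0.05, so they say nothing on whether the ratios differ.

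Genes that make, bind and break down collagen were listed by role. The 8 lists hold 75 genes, 60 of them tested. Limma called none of the 60, alone or with the replicate block, edgeR called none, and DESeq2 called 3 (TGM2, MRC2 and MMP2, against 1.7% of all genes). At an unadjusted p under 0.05 limma listed 10 of the 60 (16.7%, against 6.48% of all genes), and for 8 the lines did not overlap (13.3%, against 10.9%). With the replicate block, 17 of the 60 had an unadjusted p under 0.05 (28.3%, against 11.1% of all genes). Of 18 genes for hydroxylation, glycosylation and folding of the chains, 15 had a higher and 3 a lower value in POLDIP2 KO, with a median log2 fold change of 0.15. P3H2, a prolyl 3-hydroxylase active on type IV collagen, was at 2481, 3482 and 2845 in WT and at 3732, 4357 and 4570 in POLDIP2 KO, without overlap (log2 fold change 0.53, limma adjusted p = 0.416). The 6 genes of procollagen export had a median of 0.03, and the 7 tested genes of propeptide removal a median of -0.21, with no member at an unadjusted p under 0.05 in either list. Among 7 cross-linking genes (median 0.07), TGM2, a transglutaminase, was at 4963, 7839 and 5384 in WT and at 3066, 3704 and 1627 in POLDIP2 KO. Its lines did not overlap, and its log2 fold change of -1.17 had an adjusted p of 0.393 with limma and 0.0253 with DESeq2. LOX, the lysyl oxidase that cross-links fibrillar collagen, was at 34094, 13679 and 17945 in WT and at 48555, 18413 and 23412 in POLDIP2 KO, highest in replicate 1 of each line as COL1A1 was (limma adjusted p = 1.000, and 0.0992 under the replicate block).

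Of 6 partners of type IV collagen in the basement membrane, 3 had an unadjusted p under 0.05 (against 6.48% of all genes), and the median log2 fold change was 0.36. They were HSPG2, the proteoglycan perlecan (0.69, adjusted p = 0.477), NID2, a nidogen that links laminin to type IV collagen (1.29, adjusted p = 0.547), and LAMB1, a laminin chain (0.55, adjusted p = 0.167). LAMB1 was at 5232, 4960 and 5043 in WT and at 7533, 8158 and 6748 in POLDIP2 KO, a narrow spread within each line and no overlap. Its adjusted p with DESeq2 was 0.000515, with a fold change under 1.5. Of 9 tested collagen receptors (median 0.17), ITGA1, an integrin subunit that binds type IV collagen, was at 470, 397 and 309 in WT and at 684, 527 and 619 in POLDIP2 KO (0.65, adjusted p = 0.493). MRC2, an endocytic receptor for collagen, was at 1578, 1348 and 1231 in WT and at 2721, 2450 and 2059 in POLDIP2 KO, without overlap. Its log2 fold change of 0.80 had an adjusted p of 0.165 with limma and 0.000719 with DESeq2.

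Of 8 genes of collagen breakdown, 3 passed the filter. MMP2, a gelatinase that also cuts type IV collagen, was at 908, 520 and 325 in WT and at 2804, 1378 and 1581 in POLDIP2 KO. Every POLDIP2 KO library lay above every WT library, and the log2 fold change of 1.77 had an adjusted p of 0.267 with limma and 0.00209 with DESeq2. FAP, a gelatin-degrading membrane protease, was at 853, 185 and 122 in WT and at 1751, 651 and 916 in POLDIP2 KO (1.92, adjusted p = 0.686), with overlap. MMP14, a membrane-bound collagenase, had a log2 fold change of 0.12. Of 12 fibril-binding matrix genes, 4 passed the filter (median 0.16). TNXB, a tenascin that binds collagen fibrils, was at 101, 163 and 84.6 in WT and at 316, 224 and 228 in POLDIP2 KO (1.17, limma adjusted p = 0.306), without overlap.

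**Figure D5:**
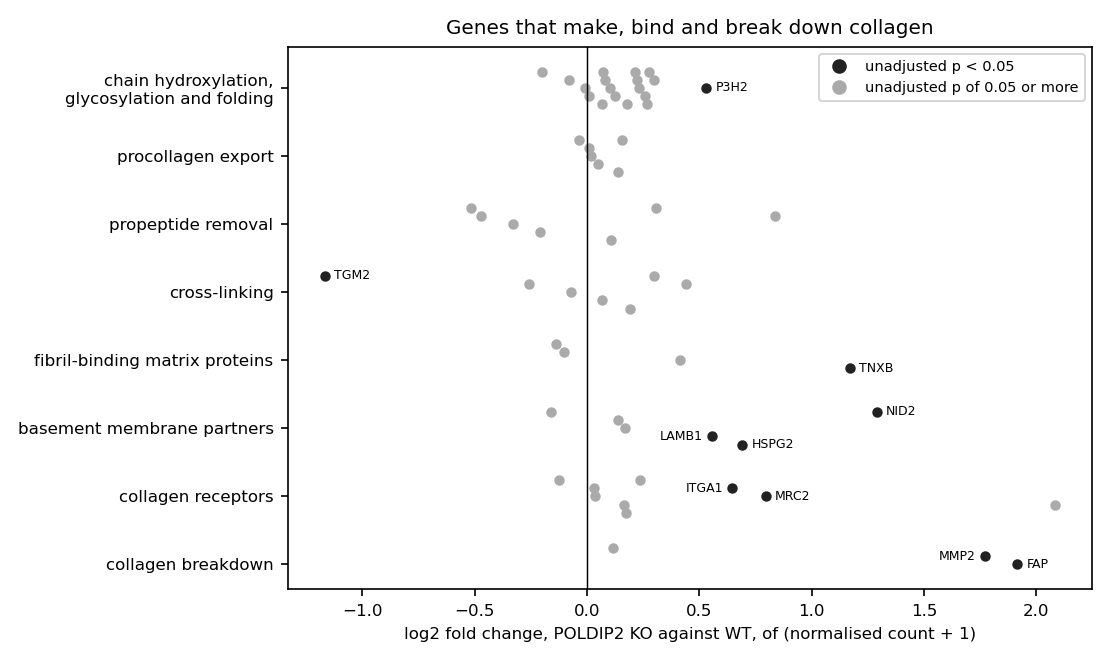
Log2 fold change of POLDIP2 KO against WT on the (normalised count + 1) scale for the tested genes of 8 lists by role, with genes at an unadjusted limma p under 0.05 in black and named. TGM2 at -1.17 is the only named gene left of 0, and MMP2 at 1.77 and FAP at 1.92 lie farthest right among the named genes.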

How the data were processed

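Total RNA of 3 WT and 3 POLDIP2 KO libraries was sequenced as stranded single-end polyadenylated RNA. The authors quantified reads with Salmon 1.8, obtained gene-level counts for GRCh38 through tximport and scaled them with DESeq2 1.34.0. The deposited signal is the normalised count of 37902 genes. The annotation release was not given in the sources used here, and 34152 identifiers matched GENCODE 44. To recover reads, values were divided by the lowest nonzero value of their library, and 100% of values were whole within 0.001. The recovered depth was 31532797 to 45795509 reads per library, and at the floor of 3 reads only counting error is covered. In libraries whose step is close to 1 (1.00 in WT replicate 2, 0.993 in POLDIP2 KO replicate 3), whole values say little. Whether tximport's length correction entered the values could not be seen.

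Genes with a mean of at least 10 were fitted with limma 3.58.1 (eBayes with trend) in R 4.3.3 on log2(normalised count + 1), which understates fold changes of low genes, with Benjamini-Hochberg adjustment over all 14684 and thresholds of 0.05 and a 1.5-fold change. Chain ratios were tested by exact permutation, two-sided. Deviations from the line means correlated at 0.315, 0.137 and 0.129 between same-numbered libraries and at -0.259 to 0.147 between others. The 0.147, of WT replicate 3 with POLDIP2 KO replicate 2, exceeded the same-numbered values of replicates 2 and 3. The correlations thus set apart replicate 1 and do not show that the numbers pair replicates 2 and 3. An alternative fit had the replicate numbers as a block. The other alternatives were edgeR 4.0.16 and DESeq2 1.42.0 on recovered reads, a pseudocount of 0.5 or of 5, no filter on low values and one at a mean of 50, eBayes without trend, quantile normalisation, and leaving out libraries. On simulated data for this comparison (14514 genes, 192 changed), limma recovered 38.8% of 2-fold and 78.7% of 4-fold changes, with 7.44% false among 121 calls. The simulation drew each gene independently and held no difference shared by replicate 1 of both lines, so these rates need not hold for the real libraries.

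The members, gene lists and tests were chosen with earlier results of these data known. Every tested collagen is named. Values in each library are given at least for collagens with an unadjusted p under 0.05, without overlap, among the 5 highest per kb or in a chain ratio, and the other genes named are list members with an unadjusted p under 0.05. MITF, OTX2, RPE65, TTR, TYR, RLBP1, PMEL, TYRP1 and the keratins were named to check the labelled cell type. BEST1 and RDH5, from the same list, were given values after these had been seen. COL3A1, the other type IV chains and further collagens, LOX, MMP14, ITGA11, BGN, LUM, DCN, ASPN, PRELP and the fibroblast, endothelial and leukocyte markers were given values after these had been seen. The lists cover collagen biosynthesis, matrix partners, receptors and breakdown, and markers of RPE, fibroblasts, endothelium and leukocytes. Of 4 endothelial markers, KDR (19.8 to 161) and VWF (11.5 to 41.5) passed the filter, PECAM1 stayed at 7.38 or less and CDH5 at 0.945 or less. Of 4 leukocyte markers, CD68 (1680 to 2187) passed it, PTPRC stayed at 6.95 or less, CD14 at 6.51 or less and CD3E at 0. The fibrillar median without COL1A2 and COL3A1 and the levels without POLDIP2 KO replicate 1 were added after seeing the data. ADAMTS2 and GP6 were not analysed here. Promoter sequences from RefSeq matched 32 of the 44 members. Figures were drawn with Python 3.11.15 and matplotlib 3.10.9.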

Additional observations from a re-analysis of the deposited data

How the results depend on the processing

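With DESeq2, 1 collagen gene and 248 genes in all were called, against 0 and 25 with limma. With the replicate block, 1 collagen gene was called and 8 had an unadjusted p under 0.05, and a mean of at least 50 left 16 calls among all genes. COL12A1 turned to -0.071 on the log2 scale with quantile normalisation. Without replicate 1 of both lines 4 genes in all were called, 6 collagen genes had an unadjusted p under 0.05, COL12A1 was at 0.13, and COL1A2 turned to -0.52 and COL6A2 to -0.17. Leaving out 1 library at a time gave 0 to 5 calls among all genes (0 without replicate 2 or 3 of either line, 4 when POLDIP2 KO replicate 1 was left out and 5 for that of WT), and 0 to 0 among collagen genes. The collagen genes at an unadjusted p under 0.05 then numbered 1 to 5, with 1 when WT replicate 2 was left out. Log2 fold changes then ran from -0.18 to 0.49 for COL4A2, -0.044 to 0.12 for COL12A1, -1.21 to 3.42 for COL1A2 and -0.62 to 0.85 for COL6A2. The log2 ratio differences ran from -1.17 to 1.86 for COL1A1 over COL1A2 and from -0.50 to 0.68 for COL6A1 over COL6A2. COL1A1 ran from 0.65 to 2.25, COL5A1 from -6.82 to -3.80, and COL27A1 from 0.86 to 1.33, with adjusted p from 0.280 to 0.580. The cause of these moves was not tested, beyond the fewer libraries or genes in each fit. Of 304 values recomputed, 275 kept direction and side of the threshold. For genes of few reads, depth limits the fold change.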
